A study of Mus musculus with 18 samples.

Results

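The translation initiation and elongation factors were examined in mouse embryonic stem cells in which nucleolin, an abundant nucleolar protein of ribosome production, was depleted by RNA interference. Members were the array probes whose platform gene symbol begins with Eif and a digit from 1 to 6 or with Eef and 1 or 2. Symbols beginning Eif2ak, which are kinases of eIF2, and Eif2c, an old name of the Argonaute genes, were left out. The rule found 118 probes for 59 genes, out of 45281 probes and 19057 named genes. Probes were kept if they had detection p-values under 0.05 throughout some group of 3 arrays, which 90 member probes of 49 genes did, among 19154 probes in all. The 10 genes with no kept probe were Eef1akmt2, Eif1ax, Eif2s3x-ps1, Eif3e, Eif3m, Eif4e, Eif4e1b, Eif4ebp3, Eif4g3 and Eif5a2.

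All cells were CGR8, a feeder-independent embryonic stem cell line of the 129P2/Ola strain. Tetracycline (Tc) induced 1 siRNA in each of 3 stable lines: against EGFP, a jellyfish protein, as the control, against nucleolin at a first site (line Ncl-1) or against nucleolin at another site (line Ncl-2). Each line was kept for 3 days without or with Tc, giving 6 groups of 3 Illumina Mouse-6 version 2 arrays. Each siRNA sits in its own stable line, so the siRNA and the line cannot be told apart. The labels do not say that replicates were separate cultures, so p-values measure only how these samples spread, which may be technical.

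Translation begins when eIF2, with GTP and the initiator tRNA, joins the small ribosomal subunit together with eIF1, eIF1A, eIF3 and eIF5, and eIF2B reloads eIF2 with GTP for each new round. The eIF4 factors bind the mRNA cap and unwind the mRNA, a step that the 4E-BP proteins block by holding eIF4E, and eIF5B then joins the large subunit. During elongation eEF1A delivers aminoacyl-tRNA, the eEF1B complex recharges eEF1A with GTP, and eEF2 moves the ribosome along. Embryonic stem cells are known for a low rate of translation that rises on differentiation.

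Signals are given as log2 intensity after background correction and quantile normalization, and a change is the mean log2 signal with Tc minus that without Tc in the same line, ± its standard error (SE). A probe passed when its limma p-value, two-sided and Benjamini-Hochberg adjusted over all 19154 kept probes, was below 0.05. Samples with the same replicate number deviated together across all 6 groups, so where a fit that blocks on this number changed the call, its result is given too. Replicate 3 was the brightest, with mean raw signals of 625 to 837 on its 6 arrays beside 280 to 596 on the 12 others. The targeted gene, Ncl, fell by 4.66 ± 0.36 in the Ncl-1 line (adjusted p = 3.58e-06) and by 4.36 in the Ncl-2 line (adjusted p = 5.99e-06), and its change in the EGFP line was 0.07. All 10 embryonic stem cell markers were detected in every group. Their summed signal was 106086 to 110438 without and 93307 to 114097 with Tc in Ncl-1. In the same order it was 106567 to 110064 and 97056 to 102657 in Ncl-2, and 90579 to 99912 and 92027 to 94271 in EGFP. The brightest markers weigh most in such a sum. Changes of the single markers ran from -0.46 to 0.81 in Ncl-1, with 6 of 10 below 0. They ran from -0.60 to 0.60 in Ncl-2, with 8 below 0, and from -0.12 to 0.14 in EGFP, with 5 below 0. Of 7 trophectoderm markers 2 were kept, Krt7 and Tfap2c, and those not kept include Cdx2 and Eomes. Only Thy1 of 7 fibroblast markers and 4 of 8 primitive endoderm markers were kept. The summed signal of the trophectoderm markers was 922 to 2012 without and 8193 to 11276 with Tc in Ncl-1, 1088 to 1299 and 8149 to 11075 in Ncl-2, and 1039 to 3338 over the EGFP arrays. The part of this shift in the values that follow was not tested, and in bulk RNA fewer cells of a type and less RNA per cell cannot be told apart.

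Few member probes passed when each nucleolin siRNA was induced. In the Ncl-1 line 1 of 90 member probes passed, a lower one, which is 1.11% of members beside 5.69% of all kept probes, 3.86% higher and 1.83% lower. In the Ncl-2 line 3 passed, 2 higher and 1 lower, which is 3.33% of members beside 6.52% of all kept probes, 4.23% higher and 2.28% lower. The 4 calls lay on Eef1d, a guanine nucleotide exchange subunit of eEF1B, in both lines and on the 2 kept probes of Eef1a2, an eEF1A isoform of muscle and nerve, in Ncl-2. In the EGFP line none passed in either fit, beside 0% of all kept probes, and none had an unadjusted p below 0.05, beside 18 of all kept probes without the block. With the replicate block 11 member probes of 10 genes passed in Ncl-1, 4 higher and 7 lower, and 17 probes of 11 genes in Ncl-2, 3 higher and 14 lower. These were 12.2% and 18.9% of members, beside 23.1% (12.1% higher and 10.9% lower) and 24.4% (12.1% higher and 12.3% lower) of all kept probes. The members' share of calls in either direction was below the background in both lines and both fits. By direction, with the block, 15.6% of members fell in Ncl-2, above the 12.3% of all kept probes, and 3.33% rose, beside 12.1%. In Ncl-1 7.78% of members fell, beside 10.9%, and 4.44% rose, beside 12.1%. Groups with and without Tc did not overlap for 12 member probes in Ncl-1 (13.3%, against 19.4% of all kept probes), for 14 in Ncl-2 (15.6%, against 21%) and for none in the EGFP line (against 1.87%).

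The size of the changes was small and leaned downward. The median change over the 90 member probes was -0.25 in Ncl-1 and -0.14 in Ncl-2, against -0.05 and -0.06 over all kept probes. In the EGFP line both medians were near 0, at 0.01 for the members. Member probes with a change below 0 numbered 68 in Ncl-1 (75.6%, against 54.3% of all kept probes) and 61 in Ncl-2 (67.8%, against 55.2%), and 56 were below 0 in both lines (62.2%, against 44.3%). Changes lay within 0.5 of 0 for 74 member probes in Ncl-1, for 70 in Ncl-2 and for all 90 in the EGFP line. Those shares were 82.2% and 77.8% of members, beside 68.2% and 68.5% of all kept probes in the nucleolin lines. Among the 58 bright members, with a mean log2 signal above 10, the medians were -0.27 and -0.14. Over the brightest probes of the 49 genes the medians were -0.25 and -0.08, against -0.04 and -0.05 over those of all genes. Of the 49 genes 73.5% and 61.2% lay below 0, against 53.8% and 54.2%, so the Ncl-2 lean was slighter by gene. When arrays were only scaled to their median, the median of all kept probes in Ncl-2 moved from -0.06 to -0.13, and that of the members from -0.14 to -0.24.

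**Figure D1:**
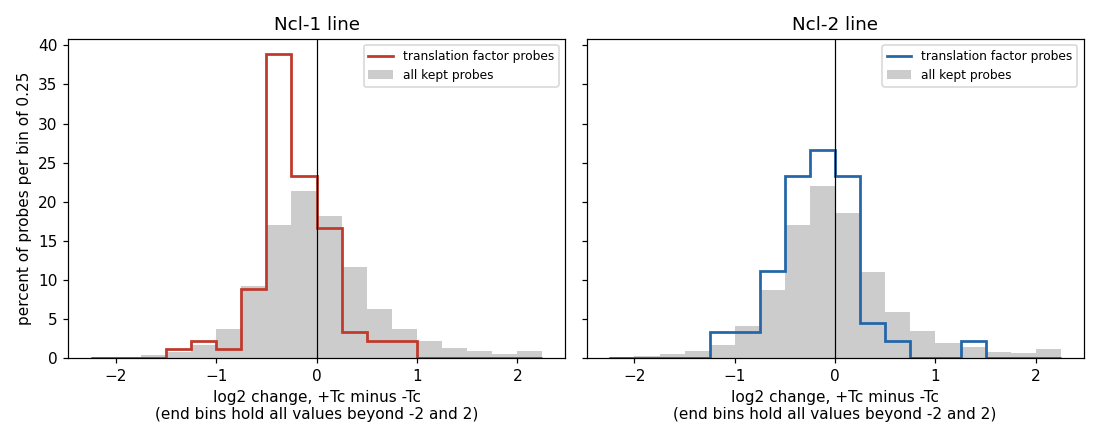
Percent of probes (y axis) in bins of log2 change with Tc minus without Tc (x axis, bins of 0.25), in the Ncl-1 and Ncl-2 lines, with the 90 member probes as an outline and the 19154 kept probes in grey. The outline leans to the left of 0, where 75.6% of member probes lie in Ncl-1 and 67.8% in Ncl-2, and is narrower than the grey bars.

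The changes of the members were alike under both siRNAs. Pearson's r between the changes in Ncl-1 and Ncl-2 across the 90 member probes was 0.78 and Spearman's rho 0.67, beside 0.88 and 0.79 over all kept probes. Probes of 1 gene share a transcript and all probes share the same 12 arrays, so these values describe the probes and are no test. With the replicate block 8 probes of 7 genes passed in both lines and in the same direction, 3 higher and 5 lower. They were 8.89% of member probes, beside 16.1% of all kept probes. They were 72.7% of the members' Ncl-1 calls and 47.1% of their Ncl-2 calls, beside 69.8% and 66.1% for the calls of all kept probes. The genes were Eef1a2 and Eif5b on the higher side and Eef1akmt1, Eef1d, Eif3j1, Eif4b and Eif5a on the lower side.

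**Figure D2:**
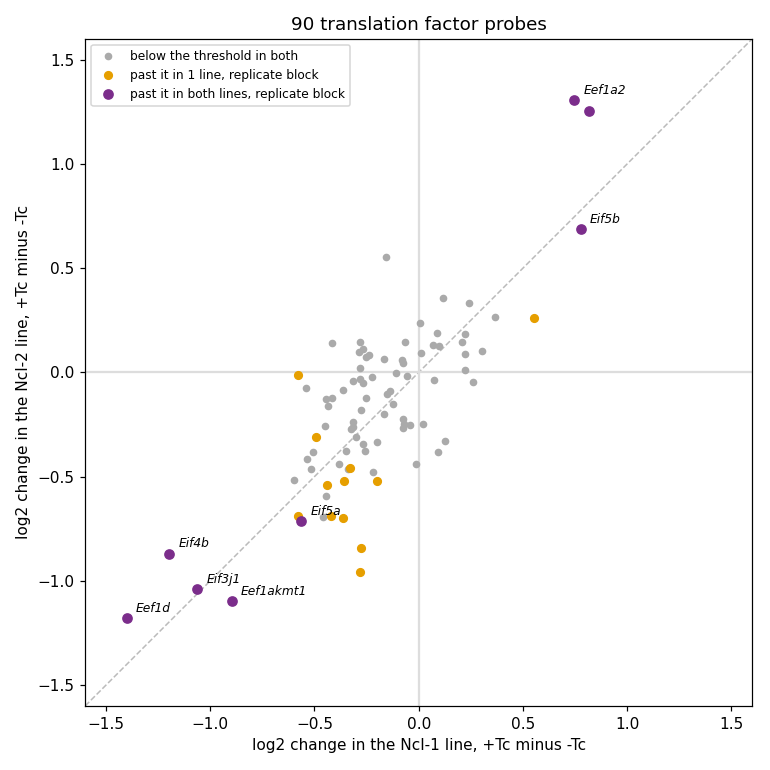
Log2 change with Tc in the Ncl-1 line (x axis) against the Ncl-2 line (y axis) for the 90 member probes, coloured by whether the probe passed the threshold with the replicate block in both lines, in 1 line or in neither, with the identity as a dashed line. The 8 probes that passed in both lines sit toward the ends of the cloud, Eef1a2 and Eif5b at the upper right and Eef1d, Eif3j1, Eif4b, Eef1akmt1 and Eif5a at the lower left.

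The kept genes of the eIF1 and eIF2 groups, named after factors that open initiation, had no call in either nucleolin line in either fit. Eif1, the gene of eIF1 itself, was not among the member probes. Each gene is described by its brightest kept probe. The 3 kept genes of the eIF1 group, Eif1a, Eif1ad and Eif1b, had a median change of -0.17 in Ncl-1 and 0.10 in Ncl-2. Of these, Eif1a, which encodes the scanning factor eIF1A, had values of -0.29 and 0.10, and Eif1ad, which encodes a protein with an eIF1A-like domain, -0.17 and 0.07. The eIF2 group holds Eif2a and Eif2d beside genes of eIF2 subunits. All 5 kept genes of the eIF2 group lay below 0 in Ncl-1, with a median of -0.28, and all 5 did so in the EGFP line, with a median of -0.16. In Ncl-2 2 of 5 did, with a median of 0.04. Eif2s3x, the X-linked gene of the gamma subunit of eIF2, had -0.60 ± 0.49 in Ncl-1 (adjusted p = 0.654) and -0.52 in Ncl-2 (adjusted p = 0.722). Eif2a, which encodes a separate factor that can bring initiator tRNA to the ribosome, had -0.42 ± 0.26 in Ncl-1 (adjusted p = 0.472) and -0.12 in Ncl-2. The alpha subunit gene Eif2s1 was not analysed here.

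The subunits of eIF2B, the exchange factor that sets how much eIF2 is ready for use, lay on the same side throughout. All 5 kept genes lay below 0 in both nucleolin lines, with medians of -0.31 and -0.26, and so did all 8 of their kept probes. In the EGFP line the median was 0.04. No brightest probe of these genes passed in either fit. Eif2b4, the delta subunit gene, named after its values were seen, had -0.31 ± 0.17 in Ncl-1 (adjusted p = 0.399) and -0.26 ± 0.17 in Ncl-2 (adjusted p = 0.520), with groups that did not overlap in either line. Eif2b1, the alpha subunit gene, had log2 signals of 12.20, 12.01 and 10.70 without and 11.88, 11.47 and 10.51 with Tc in Ncl-1. The groups overlap because replicate 3 is low in both, while each replicate was lower with Tc than without. Its change was -0.35 ± 0.58 in Ncl-1 and -0.38 in Ncl-2, and that of Eif2b3, the gamma subunit gene, was -0.32 ± 0.21 (adjusted p = 0.501) and -0.27. The only eIF2B probe that passed was the dimmer probe of Eif2b5, the catalytic epsilon subunit gene, named after its values were seen. It fell by 0.52 ± 0.38 in Ncl-2 with the replicate block (adjusted p = 0.0242; 0.579 without the block), with within-replicate differences of -0.47, -0.58 and -0.51.

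Of the 10 kept genes of eIF3, the large scaffold that holds the initiation complex together, 9 lay below 0 in each nucleolin line, with medians of -0.35 in Ncl-1 and -0.28 in Ncl-2. The EGFP line also had 9 below 0, with a median of -0.05. Over their 18 probes 15 lay below 0 in Ncl-1, 14 in Ncl-2 and 11 in the EGFP line. The exception in Ncl-1 was Eif3f, at 0.22. Eif3j1, whose product is a loosely attached subunit near the mRNA entry channel, stood out. Its log2 signals in Ncl-1 were 6.68, 6.75 and 7.78 without and 5.68, 5.75 and 6.60 with Tc. In Ncl-2 they were 6.55, 6.70 and 7.44 without and 5.11, 5.99 and 6.47 with Tc. In the EGFP line they were 7.001, 6.91 and 7.89 without and 6.88, 6.81 and 7.74 with Tc. Every array with Tc was lower than every array without Tc in both nucleolin lines, and the EGFP groups overlapped.

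The Eif3j1 change was -1.06 ± 0.43 in Ncl-1 (adjusted p = 0.204) and -1.04 ± 0.43 in Ncl-2 (adjusted p = 0.207), which did not pass. With the replicate block it passed as a fall in both lines (adjusted p = 0.000364 and 0.000398). Over 29 alternatives its adjusted p ran from 8.06e-05 to 0.686 in Ncl-1 and from 0.000133 to 0.650 in Ncl-2, and 4 of the 29 passed in each line. The fall within each replicate was 1.00 to 1.17 in Ncl-1 and 0.71 to 1.44 in Ncl-2. Without Ncl-2 replicate 1 with Tc the Ncl-2 change was -0.67. The probe was detected on 2 of the 3 Ncl-2 arrays with Tc. Another eIF3 probe passed with the block in 1 line, a dim probe of Eif3a, the largest subunit's gene, named after its values were seen, with -0.58 in Ncl-1 (adjusted p = 0.0380; 0.803 without the block) and -0.01 in Ncl-2. Eif3h, a subunit gene chosen for its large mean change, had -0.45 ± 0.87 and -0.59, with no call in either fit.

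Among the eIF4 factors the changes split by gene. The 9 kept genes had a median of -0.25 in Ncl-1, with 5 below 0, and of 0.08 in Ncl-2, with 4 below 0. Over their 19 kept probes the medians were -0.27, with 14 below 0, and -0.16, with 13 below 0, so the sign in Ncl-2 depended on whether brightest or all probes were taken. Eif4b, whose product stimulates the helicase eIF4A, had log2 signals on its brighter probe of 7.91, 8.68 and 7.46 without and 7.24, 8.05 and 7.02 with Tc in Ncl-1. In Ncl-2 they were 7.96, 8.13 and 8.20 without and 6.86, 7.90 and 7.45 with Tc. The groups overlapped in Ncl-1 but not in Ncl-2. The change was -0.58 ± 0.35 in Ncl-1 (adjusted p = 0.455; 0.0830 with the block) and -0.69 ± 0.35 in Ncl-2 (adjusted p = 0.322), where it passed with the block (adjusted p = 0.0393; 0.0393 to 0.717 over 29 alternatives). Without Ncl-2 replicate 1 with Tc the change was -0.42.

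The dimmer Eif4b probe, named after its values were seen, differed mostly between replicates. It read 6.23, 6.77 and 8.50 without and 4.82, 5.51 and 7.59 with Tc in Ncl-1, so replicate 3 with Tc exceeded replicates 1 and 2 without Tc. The differences within replicates were -1.41, -1.26 and -0.92 in Ncl-1 and -0.91, -0.80 and -0.90 in Ncl-2. It fell with the block in both lines (adjusted p = 0.000249 and 0.00296) and did not pass without it (adjusted p = 0.713 and 0.833). The probe was not detected on the replicate 1 array with Tc of either line, so the differences within replicate 1 rest on a signal at background.

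Eif4e2 encodes 4EHP, a cap-binding relative of eIF4E that represses bound mRNAs. Its brightest probe read 12.21, 12.65 and 13.08 without and 11.76, 12.02 and 12.07 with Tc in Ncl-2, with no overlap, a change of -0.70 ± 0.28 (adjusted p = 0.195; 0.0505 with the block). The change in Ncl-1 was -0.46 ± 0.28 (adjusted p = 0.481). Its 2 dimmer probes, named after their values were seen, did not overlap in Ncl-2 either and fell there with the block, by 0.70 (adjusted p = 0.0270) and by 0.96 (adjusted p = 0.0134; 0.135 without the block).

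For the helicase gene Eif4a1 the brightest probe had -0.27 and -0.05. A dimmer probe, named after its values were seen, had -0.44 in Ncl-1 and -0.54 in Ncl-2, and passed in Ncl-2 with the block (adjusted p = 0.0372; 0.235 without it). A probe of Eif4a2, the gene of the other cytoplasmic eIF4A helicase, named in the same way, had -0.20 and -0.52 and also passed in Ncl-2 with the block (adjusted p = 0.0190). The brightest Eif4a2 probe had -0.28 and -0.03, with no call in either fit. The eIF4E-binding repressors did not pass in either fit. Eif4ebp1 had -0.14 ± 0.31 in Ncl-1, -0.09 in Ncl-2 and 0.12 in the EGFP line, and Eif4ebp2 had 0.01 ± 0.59, 0.09 and -0.20. The cap-binding gene Eif4e itself had no kept probe and was detected on 2 of 18 arrays. The scaffold gene Eif4g1 was not analysed here.

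**Figure D3:**
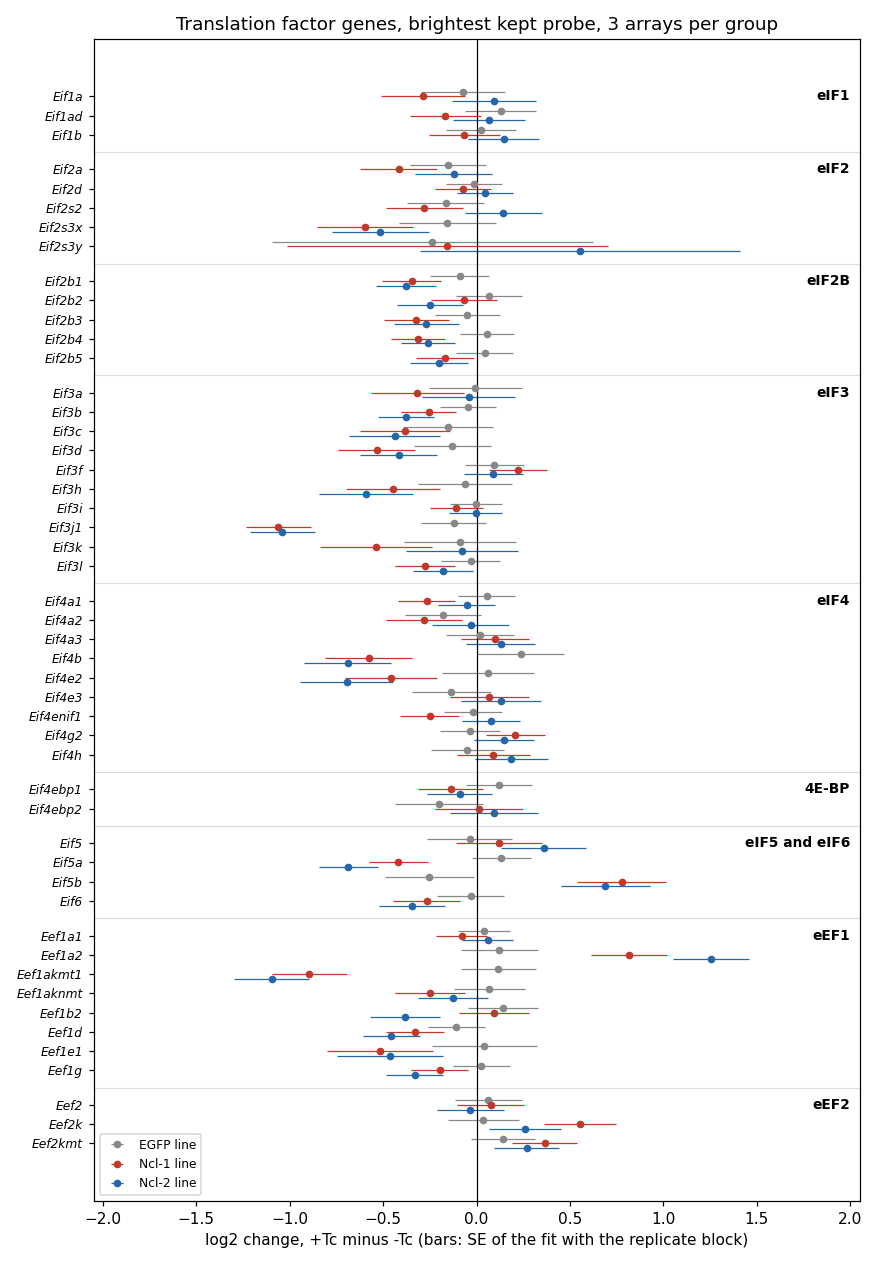
Log2 change with Tc minus without Tc (x axis) for the brightest kept probe of each of 49 genes (y axis, ordered by role), in the EGFP, Ncl-1 and Ncl-2 lines, with bars for the SE of the fit with the replicate block. The eIF2B and eIF3 genes sit mostly left of 0 in the nucleolin lines, Eef1a2 and Eif5b to the right, and the EGFP values stay near 0.

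The factors numbered eIF5 and eIF6 did not share a direction. Eif5a encodes eIF5A, the hypusine-bearing factor that helps the ribosome through difficult peptide bonds. The brightest of its 3 probes read 13.56, 13.56 and 12.46 without and 13.06, 13.01 and 12.25 with Tc in Ncl-1, and 13.53, 13.59 and 12.67 without and 12.70, 12.83 and 12.19 with Tc in Ncl-2. In the EGFP line it read 13.56, 13.87 and 12.58 without and 13.67, 13.72 and 13.02 with Tc. Replicate 3 was low in every group, so the groups overlapped, but each replicate of both nucleolin lines was lower with Tc. The change was -0.42 ± 0.40 in Ncl-1 (adjusted p = 0.736; 0.0648 with the block) and -0.69 ± 0.40 in Ncl-2 (adjusted p = 0.433), where it passed with the block (adjusted p = 0.00448; 5.73e-05 to 0.792 over 29 alternatives). The other Eif5a probes had -0.56 and -0.28 in Ncl-1 and -0.71 and -0.84 in Ncl-2. All 3 Eif5a probes fell in Ncl-2 with the block, the first of these other probes fell in Ncl-1 too (adjusted p = 0.0259), and the second had non-overlapping groups in Ncl-2.

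Eif5b, the gene of the GTPase that joins the large subunit, was on the higher side. Its log2 signals in Ncl-1 were 6.77, 7.21 and 8.60 without and 7.79, 8.35 and 8.76 with Tc. In Ncl-2 they were 6.86, 6.999 and 8.08 without and 7.17, 7.67 and 9.15 with Tc, and in the EGFP line 7.52, 7.45 and 8.72 without and 7.22, 6.82 and 8.89 with Tc. Replicate 3 was high in every group and the groups overlapped, while each nucleolin replicate was higher with Tc than without, by 0.17 to 1.15 in Ncl-1 and by 0.32 to 1.07 in Ncl-2. The change was 0.78 ± 0.64 in Ncl-1 (adjusted p = 0.658) and 0.69 in Ncl-2 (adjusted p = 0.714). Without each array in turn it ran from 0.40 to 1.31 in Ncl-1 and from 0.11 to 1.10 in Ncl-2, the lowest without Ncl-2 replicate 3 with Tc. It rose with the block in both lines (adjusted p = 0.0263 and 0.0443), with ranges over 29 alternatives of 0.000508 to 0.928 and 0.00365 to 0.966. These values rest on 1 of 3 Eif5b probes, since the others were not detected on any array.

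Eif6, whose product holds the large subunit apart and takes part in ribosome production, had -0.27 ± 0.20 in Ncl-1 (adjusted p = 0.616) and -0.35 ± 0.20 in Ncl-2 (adjusted p = 0.440) on its brightest probe. Its groups did not overlap in either line, but it did not pass, and its other probe had 0.22 and 0.01. Of the probes of Eif5, the GTPase-activating partner of eIF2, 1 named after its values were seen fell in Ncl-1 with the block, by 0.49 (adjusted p = 0.0386; 0.404 without the block). The other Eif5 probes had changes of 0.30 and 0.12 in Ncl-1, so the probes of this gene disagreed.

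In the elongation group the lowest change of any member probe in either nucleolin line was on a probe of Eef1d, the dimmer of its 2 kept probes, named after its values were seen. Its log2 signals in Ncl-1 were 8.99, 9.44 and 9.23 without and 7.81, 7.62 and 8.03 with Tc. In Ncl-2 they were 9.38, 9.65 and 9.03 without and 8.34, 8.29 and 7.89 with Tc, and in the EGFP line 9.30, 9.64 and 9.57 without and 9.37, 9.79 and 9.50 with Tc. Both nucleolin groups with Tc lay below all other arrays, with no overlap, and the EGFP groups overlapped. The probe fell by 1.40 ± 0.22 in Ncl-1 (adjusted p = 0.00138) and by 1.18 ± 0.22 in Ncl-2 (adjusted p = 0.00453). Under median scaling it did not pass in either line (adjusted p = 0.0751 and 0.0971), the highest of 28 alternatives, and the 27 other alternatives kept both calls.

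The brighter Eef1d probe moved less. It read 14.06, 13.98 and 13.68 without and 13.55, 13.67 and 13.51 with Tc in Ncl-1, and 13.98, 14.08 and 14.18 without and 13.65, 13.84 and 13.38 with Tc in Ncl-2. The groups did not overlap in either line. The change was -0.33 ± 0.20 in Ncl-1 (adjusted p = 0.450; 0.132 with the block) and -0.46 ± 0.20 in Ncl-2 (adjusted p = 0.223; 0.0390 with the block). The change of the dimmer probe minus that of the brighter was -1.07 in Ncl-1 and -0.72 in Ncl-2, with a mean of -0.90, which gave p = 0.005 in an exact two-sided permutation test of the Tc labels within both lines, the smallest value that its 400 arrangements allow. The adjusted p over 2 pairs computed, the other being Eef1a2 and Eef1a1, which is not reported because Eef1a1 lies near the top of the signal range, was also 0.005. The pair was compared after its values were seen and holds the member probe with the lowest change, so neither p is independent support. The arrangements did not keep replicate numbers together. The brighter Eef1d probe ranked 189th of 19154 kept probes on the array where it was highest. A mouse Eef1d gene is known to give transcripts of different length. The platform annotation assigns the brighter and the dimmer probe to different RefSeq transcripts. Other probes assigned to the transcript of the dimmer probe were detected on 2 and 5 of 18 arrays and were not kept. Which transcripts each probe reads was not tested.

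Of the isoforms of eEF1A, Eef1a1 is that of most cells and Eef1a2 that of muscle and nerve. Eef1a1 read 15.44, 15.42 and 15.31 without and 15.33, 15.37 and 15.23 with Tc in Ncl-1, and 15.42, 15.38 and 15.28 without and 15.46, 15.36 and 15.43 with Tc in Ncl-2. The groups overlapped in both lines. The change was -0.08 ± 0.16 in Ncl-1, with a 95% confidence interval of -0.41 to 0.25, and 0.06 in Ncl-2, with an interval of -0.27 to 0.39. The Eef1a1 probe ranked 9th to 37th of 19154 kept probes on the 18 arrays and lay near the highest signal on any array, 15.60, so a rise may not show and these intervals do not bound the change of the transcript. Another bright probe had -0.06 and -0.02, and a dim probe -0.24 and 0.09, none with a call in either fit.

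The brighter Eef1a2 probe read 5.69, 5.13 and 5.81 without and 6.21, 6.35 and 6.53 with Tc in Ncl-1. In Ncl-2 it read 5.02, 5.10 and 5.56 without and 6.64, 6.54 and 6.27 with Tc, and in the EGFP line 5.33, 5.32 and 5.41 without and 5.06, 5.57 and 5.79 with Tc. The nucleolin groups with Tc lay above all other arrays and the EGFP groups overlapped. It rose by 1.25 ± 0.24 in Ncl-2 (adjusted p = 0.00492). In Ncl-1 the value was 0.82 ± 0.24 (adjusted p = 0.0627), a rise that passed with the block (adjusted p = 0.00859; 1.03e-06 to 0.268 over 29 alternatives). The other kept Eef1a2 probe had 0.75 ± 0.28 (adjusted p = 0.161; 0.0268 with the block) and 1.31 ± 0.28 (adjusted p = 0.0106). Of the 3 Eef1a2 probes on the array, the remaining probe was not detected on any array, with or without Tc. These signals are dim, and the brighter probe was detected on 2 of 3 arrays in the Ncl-2 group without Tc and in the EGFP group with Tc. Whether the Eef1a2 probes also bind the Eef1a1 transcript was not tested.

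**Figure D4:**
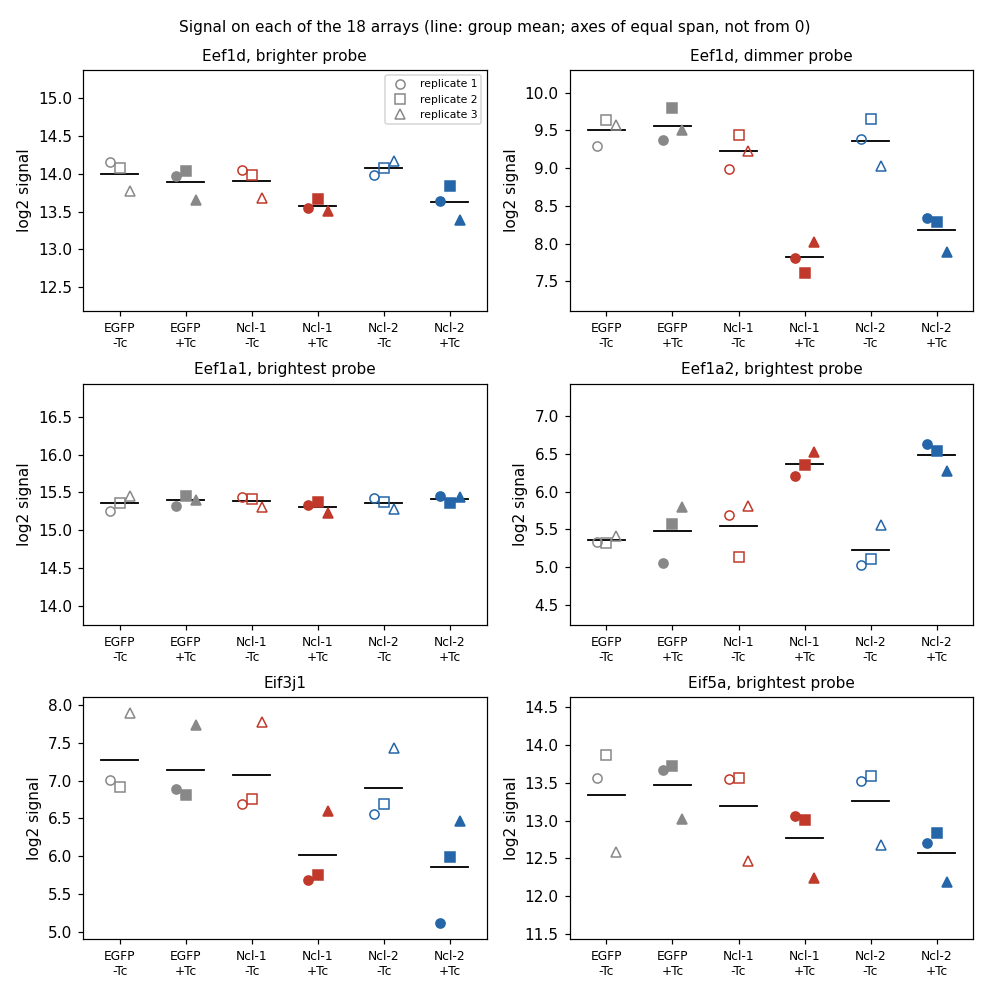
Log2 signal (y axes of equal span, not starting at 0) on each of 18 arrays for the brighter and the dimmer Eef1d probe and for Eef1a1, Eef1a2, Eif3j1 and Eif5a, by line, with open symbols without Tc, filled symbols with Tc and a line at each group mean. Filled symbols lie below open ones for the dimmer Eef1d probe and Eif3j1 and above them for Eef1a2 in both nucleolin lines, while Eef1a1 lies near the top of the signal range in every group and Eif5a follows the replicate.

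The sequence upstream of the Eef1a2 start is shown because Eef1a2 had the highest change of any member in either nucleolin line. It is the 250 bases before the annotated start in RefSeq on GRCm38.p6, chr2:181157016-181157265 on the minus strand, 5′ to 3′ on the strand of the gene, with a GC content of 54%. It is all in lower case since none of the motifs searched occurs in it.
Eef1a2: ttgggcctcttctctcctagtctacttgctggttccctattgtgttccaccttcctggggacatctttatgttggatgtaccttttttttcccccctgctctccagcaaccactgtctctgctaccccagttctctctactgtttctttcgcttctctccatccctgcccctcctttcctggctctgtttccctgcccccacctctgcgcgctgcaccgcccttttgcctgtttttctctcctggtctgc

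Eef1akmt1 encodes a lysine methyltransferase of eEF1A. Its probe read 10.72, 10.64 and 9.29 without and 9.44, 9.58 and 8.94 with Tc in Ncl-1, 10.82, 10.83 and 9.66 without and 10.03, 9.39 and 8.60 with Tc in Ncl-2, and 10.39, 10.76 and 9.58 without and 10.60, 10.92 and 9.56 with Tc in the EGFP line. Replicate 3 was low throughout and the groups overlapped, but each nucleolin replicate was lower with Tc. The change was -0.90 ± 0.50 in Ncl-1 (adjusted p = 0.408) and -1.10 ± 0.50 in Ncl-2 (adjusted p = 0.262). With the block Eef1akmt1 fell in both lines (adjusted p = 0.00418 and 0.000822), and over 29 alternatives the adjusted p ran from 0.000160 to 0.732 and from 8.44e-07 to 0.598. The within-replicate differences were -1.28, -1.05 and -0.36 in Ncl-1 and -0.79, -1.44 and -1.06 in Ncl-2, so replicate 3 of Ncl-1 had the smallest. Without 1 array the change was -1.36 (replicate 3 without Tc left out) in Ncl-1 and -0.73 (replicate 3 with Tc left out) in Ncl-2. Over the 8 kept genes of the eEF1 group 6 lay below 0 in each line, with medians of -0.22 and -0.36. Over their 16 probes the medians were -0.22, with 13 below 0, and -0.11, with 10 below 0.

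**Figure D5:**
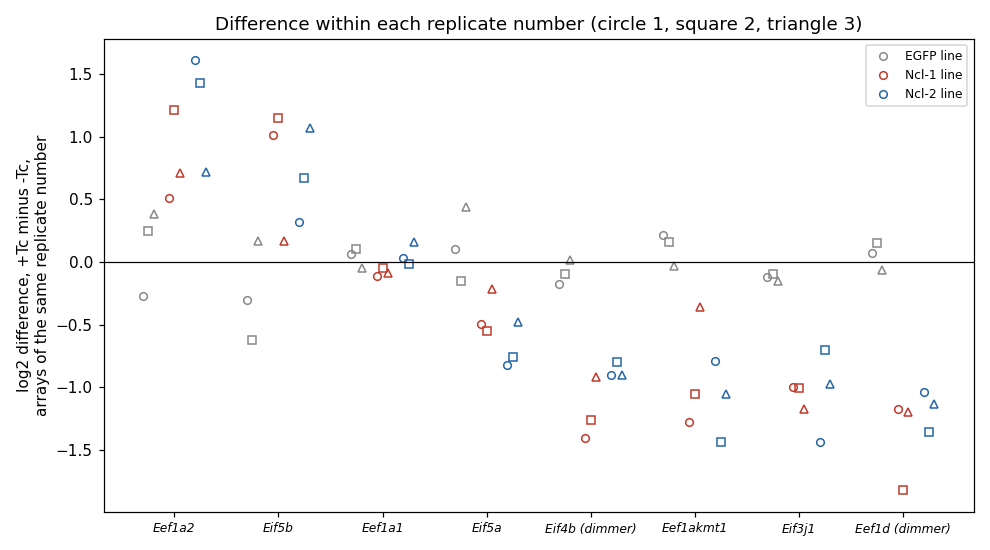
Log2 signal with Tc minus without Tc within replicate 1 (circles), 2 (squares) and 3 (triangles) (y axis) for 8 member probes (x axis), coloured by line. The differences of Eif3j1, Eef1akmt1 and the dimmer Eif4b probe are below 0 in all 6 nucleolin pairs and those of Eif5b above 0, with Eif5b in Ncl-1 ranging from 0.17 to 1.15.

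Translocation is carried by eEF2, which eEF2 kinase switches off by phosphorylation. Eef2 read 12.40, 12.08 and 11.07 without and 12.51, 12.58 and 10.69 with Tc in Ncl-1, and 12.54, 12.14 and 10.63 without and 12.13, 12.30 and 10.78 with Tc in Ncl-2. The spread between replicates exceeded any Tc difference, with changes of 0.08 ± 0.64 and -0.03. Eef2k, the kinase gene, read 4.78, 5.16 and 5.82 without and 5.81, 5.90 and 5.71 with Tc in Ncl-1. The groups overlapped through replicate 3, which was not higher with Tc. The change was 0.55 ± 0.29 (adjusted p = 0.361), it rose with the block (adjusted p = 0.0470; 5.34e-05 to 0.682 over 29 alternatives), and the value in Ncl-2 was 0.26 (adjusted p = 0.793). Without 1 array the Ncl-1 change ran from 0.31 (replicate 1 without Tc left out) to 0.84 (replicate 3 without Tc left out). Eef2kmt, the gene of a lysine methyltransferase of eEF2, had 0.36 and 0.27 on its brightest probe (adjusted p = 0.680 and 0.810), and its other kept probe had 0.02 and -0.25.

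Left over are 27 kept genes that met none of the naming rules listed under processing. Genes whose brightest probe passed without the block or had the largest responses were taken out, so small changes here follow from that choice. Some of the 27 are named elsewhere for other reasons, among them Eef1d, Eif3f and Eif2s3y. Values of the 27 on the brightest probe ran from -0.54 to 0.22 (Eif3f) in Ncl-1, with a median of -0.20 and 20 below 0. In Ncl-2 they ran from -0.46 to 0.55 (Eif2s3y), with a median of -0.04 and 16 below 0. In the EGFP line they ran from -0.24 to 0.14. With the block 1 of these probes passed in Ncl-2, the brighter Eef1d probe.

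Of the other contrasts, that of both nucleolin changes, averaged, with the EGFP change asks which responses exceed that of an induced siRNA against EGFP. Here 1 of 90 member probes passed, the dimmer Eef1d probe, at -1.34 ± 0.27 (adjusted p = 0.0173), beside 2.25% of all kept probes. The count was 0 when EGFP replicate 1 without Tc or EGFP replicate 2 with Tc was left out. With the block 8 passed, beside 12.1% of all kept probes. Among them were Eef1a2 at 0.91 (adjusted p = 0.0247; 0.154 without the block), Eif3j1 at -0.93 (adjusted p = 0.00862), Eef1akmt1 at -1.11 (adjusted p = 0.00674), Eif5b at 0.99 (adjusted p = 0.0356) and probes of Eif5a at -0.69 (adjusted p = 0.0286) and -0.80 (adjusted p = 0.0201). The other comparison, of the Ncl-1 change with the Ncl-2 change, had no member past the threshold in either fit, beside 0% of all kept probes. No member had an unadjusted p below 0.05 without the block, beside 74 of all kept probes.

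Before induction the lines differed in few members. Between the Ncl-1 and EGFP lines without Tc none of 90 member probes passed, beside 0.705% of all kept probes, 1 had an unadjusted p below 0.05 (1.11%, against 8.41% of all kept probes), and 2 passed with the block, beside 7.6%. Between the Ncl-2 and EGFP lines none passed, beside 0.741%, 4 had an unadjusted p below 0.05 (4.44%, against 9.65%), and 5 passed with the block, beside 10.6%. Groups did not overlap for 6 member probes in the first comparison (6.67%, against 12.7% of all kept probes) and for 9 in the second (10%, against 14.9%). The probes that passed with the block are named after their values were seen. The largest difference was on the dimmer Eef2kmt probe, which read 7.56, 7.73 and 6.64 in EGFP, 8.89, 9.02 and 7.88 in Ncl-1 and 8.95, 9.06 and 8.08 in Ncl-2. All 6 nucleolin-line arrays exceeded all 3 EGFP arrays, by a mean of 1.28 ± 0.47 (adjusted p = 0.341; 0.000688 with the block) and 1.39 (adjusted p = 0.239; 0.000382). The other Eef2kmt probe differed by -0.08 and -0.01, so the probes disagreed. Eif4enif1, the gene of the eIF4E transporter 4E-T, was lower in both nucleolin lines on its dimmer probe with the block, by -0.54 (adjusted p = 0.0341) and -0.60 (adjusted p = 0.0165), and its brightest probe was lower in Ncl-2, by -0.75 (adjusted p = 0.00675). In Ncl-2 a probe of Eif4e2 was higher by 0.86 (adjusted p = 0.0460) and a probe of Eif1ad by 0.70 (adjusted p = 0.0368), both with the block.

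Other genes of translation control gave 2 calls in Ncl-1, both named here. Of 67 listed genes, covering eIF2 kinases, mTOR signalling, cap regulators, termination, factor modification and mitochondrial translation, 57 had a kept probe. Ddit4, whose product restrains mTOR complex 1, rose by 2.24 ± 0.59 in Ncl-1 (adjusted p = 0.0358) and had 1.59 in Ncl-2 (adjusted p = 0.145; 0.000831 with the block). Ppp1r15b, a regulatory subunit of the phosphatase that restores eIF2, fell by 1.06 ± 0.24 in Ncl-1 (adjusted p = 0.0176) and had -0.81 in Ncl-2 (adjusted p = 0.0628; 0.000892 with the block). None passed in Ncl-2 or in the EGFP line. The shares called were 3.51% and 0%, beside 6.99% and 7.96% of the brightest probes of all genes. With the block 5 rose and 4 fell in Ncl-1, and 7 rose and 6 fell in Ncl-2, which is 15.8% and 22.8%, beside 25.4% and 26%. The list's median change was -0.07 in Ncl-1 and -0.02 in Ncl-2.

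The windows upstream of the members were searched for sites of known transcription factor families. RefSeq start sites on GRCm38.p6 matched 38 of the 49 kept genes, with 50 windows of 250 bases. The 3 motifs were searched on both strands, and none of them contains another. The E-box CACGTG, the core recognised by MYC, MAX and USF proteins, was in 11 of 50 windows (22%), of 9 genes, against 6.02% of all 32851 windows and 8.29% of the 10911 windows of kept genes. The ETS motif CCGGAAG was in 16%, against 6.91% and 13.3%, and the CRE motif TGACGTCA in none, against 1.55% and 2.45%. Of the 11 windows 3 were Eif5a starts, 2 of which hold the same site. The genes with an E-box were Eef1aknmt, Eef2, Eef2k, Eif1b, Eif3f, Eif3k, Eif4a1, Eif4h and Eif5a. Their median change was -0.07 in Ncl-1 and -0.03 in Ncl-2, and that of the 29 matched genes without it was -0.26 and -0.12. Examples are given for the elongation factor eEF2, its kinase, the eIF1 paralogue Eif1b and Eif5a, with the E-box in capitals and 6 bases to each side. The Eef2 site is chr10:81176582-81176599 on the plus strand, the Eef2k site chr7:120842794-120842811 on the plus strand, the Eif1b site chr9:120492576-120492593 on the plus strand and the Eif5a site chr11:69920797-69920814 on the minus strand.
Eef2: cgccgtCACGTGacgcac
Eef2k: gacggcCACGTGagcccg
Eif1b: gacggtCACGTGgcggcg
Eif5a: cgcggcCACGTGaggtgg
A match is a run of letters and not a measured binding site. Of these 4 genes Eif5a fell with the block and Eef2k rose with it in 1 line each on the brightest probe, and Eef2 and Eif1b had no call.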

How the data were processed

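The deposited intensity table, not normalized between arrays, comes with the authors' detection p-values and was made with GenomeStudio 2010.1, per the submitters' processing notes. Its background option is not given there. A normalized intensity table that the authors deposited, of unstated method, served as an alternative after log2(value + 38.1445), its lowest value being -22.1445.

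Here the first table was corrected by normexp (offset 16, with control levels that limma infers from detection), quantile normalized and log2 transformed. Kept probes had a detection p-value under 0.05 throughout some group. Genes were named through the platform annotation, in which 34885 probes have 1 symbol, 18 several and 10378 none. A fit of 6 group means in limma 3.58.1 (R 4.3.3) gave 7 contrasts, with Benjamini-Hochberg adjustment over 19154 probes. A gene was represented by its brightest kept probe.

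The members, roles, gene lists and rules were chosen with earlier results of these data known. Genes were named when their brightest probe passed in a nucleolin, EGFP or combined contrast, when they were among the 2 with the largest mean response in their role group, or when they were on a short list of core factors. Genes and probes named for other reasons are marked in the text. Deviations from group means of samples with the same replicate number correlated at 0.374 to 0.958 (median 0.747, 45 pairs). For different numbers the values ran from -0.877 to 0.720 (median -0.455, 90 pairs). Deviations within a group sum to 0, which pulls the values for different numbers down where those for the same number are high. All 18 arrays correlated best with their own number, so the replicate number was also fitted as a block. The pairing comes from the numbers in the labels and this check. On simulated data for the Ncl-1 contrast, with 19154 probes, 16% of 100 changes of log2 1 and 71% of 100 changes of log2 2 were recovered, with 10 false calls. Sequences are RefSeq's on GRCm38.p6. The number of arrays limits the precision, and alternatives were the background correction, offset, scaling, detection filter, 1 probe per gene, the block, array weights and leaving out arrays.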

Additional observations from a re-analysis of the deposited data

Results flagged for a closer look

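The dimmer Eef1d probe had a response to the nucleolin siRNAs that differed from its response to the EGFP siRNA by -1.34 ± 0.27 (limma, adjusted p = 0.0173), the only member for which that difference passed without the replicate block. Its values were 0.05 in the EGFP line, -1.40 in Ncl-1 and -1.18 in Ncl-2. The adjusted p with the replicate block was 0.00125, and 8 member probes passed in that fit. Without the block the call was lost when EGFP replicate 1 without Tc or EGFP replicate 2 with Tc was left out, and under median scaling.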

How the results depend on the processing

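Of 30 alternatives, those of background correction, offset, the authors' table and the detection filters left each count of member calls within 1.5 times its value. Counts are given for Ncl-1, Ncl-2 and nucleolin minus EGFP, in that order. Median scaling gave 0, 1 and 0, and 1 probe per gene gave 1, 1 and 0, where the call in Ncl-1 was Eef1a2 (adjusted p = 0.0459). The replicate block gave 11, 17 and 8, replicates 1 and 2 alone gave 5, 9 and 3, and with the block 9, 13 and 6. Array weights, whose estimation stopped before it converged, gave 41, 44 and 17, with 4 for Ncl-1 minus Ncl-2. For Ncl-1 and Ncl-2 against EGFP without Tc, the counts were 2 and 5 with the block, 1 and 1 with replicates 1 and 2, 2 and 1 with these and the block, and 9 and 19 with array weights. Without each array in turn the counts were 1 to 1, 2 to 4 and 0 to 1. Except for the block, whose shares are given above, no share of all kept probes stands beside these counts. The counts of the other alternatives therefore do not show how members stood against all kept probes. Median scaling ended the calls of the dimmer Eef1d probe (adjusted p = 0.0751 and 0.0971) and of Eef1a2 in Ncl-2 (0.0887), and the cause was not tested. Of 29 alternatives, 4 passed for Eif3j1 and Eef1akmt1 in each line. The same number passed for Eef1a2, Eef2k and Eif5b in Ncl-1 and for Eif5a in Ncl-2. In Ncl-2 2 passed for Eif5b and 1 for Eif4b. Except for Eif4b, the lowest adjusted p in these ranges came from array weights. Signs turned for some genes. Under median scaling Eif4ebp2 was -0.0273 in Ncl-1, and Eif1a -0.10, Eif1ad -0.0677 and Eif4ebp2 -0.0615 in Ncl-2. With replicates 1 and 2, with or without the block, Eif1a was -0.0166 in Ncl-2. With array weights Eef1a1 was -0.0037, Eef2 0.0948 and Eif1ad -0.28 in Ncl-2. The difference within replicate 3, with no test, was -0.38 for Eef2, -0.12 for Eef2k, 0.13 for Eif1ad, 0.19 for Eif4e2, 0.27 for Eif4ebp1 and -0.62 for Eif4ebp2 in Ncl-1, and 0.15 for Eef2, 0.0576 for Eif2a, 0.0742 for Eif4a1 and 0.0379 for Eif4ebp1 in Ncl-2. Without each array in turn, the Ncl-1 changes ran from -0.31 to 0.69 for Eef2, -0.49 to 0.00956 for Eif1a, -0.50 to 0.11 for Eif1ad, -1.09 to 0.20 for Eif3h, -0.42 to 0.18 for Eif4ebp1, -0.40 to 0.54 for Eif4ebp2 and -0.82 to 0.0410 for Eif2b1. The Ncl-2 changes ran from -0.60 to 0.44 for Eef2, -0.00015 to 0.27 for Eif1a, -0.31 to 0.35 for Eif1ad, -1.05 to 0.0368 for Eif3h, -0.31 to 0.10 for Eif4ebp1, -0.38 to 0.61 for Eif4ebp2, -0.70 to 0.12 for Eif2b1 and -0.15 to 0.00439 for Eif4a1. None of these genes had passed in the reported fit without the block. Among the named probes, leaving out an array kept direction and call in 799 values and turned the sign in 29. These values include leaving out arrays of the other lines, whose signals do not enter the change. All 29 turned signs came from leaving out an array of the same line, so the 799 overstates how stable the signs are. The dim Eef1a2, Eef2k and Eif3j1 signals and that of the dimmer Eif4b probe lie near the detection limit, and 3 arrays per group limit what could be detected.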

Other observations

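Eif2s3y, the Y-linked gene of the eIF2 gamma subunit, named after its values were seen, had log2 signals that followed the replicate in some lines and not in others. It read 6.48, 5.92 and 8.94 in the EGFP line without Tc and 5.46, 6.52 and 8.65 with Tc. It read 7.89, 8.90 and 7.98 in Ncl-1 without Tc and 8.02, 8.72 and 7.56 with Tc. It read 5.30, 6.09 and 9.72 in Ncl-2 without Tc and 5.91, 6.23 and 10.64 with Tc. Replicate 3 was the highest in the EGFP and Ncl-2 lines and not in Ncl-1.

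Of the eIF2 kinase genes, Eif2ak3, which encodes PERK, rose with the replicate block in both nucleolin lines, by 1.09 (limma, adjusted p = 0.00158) in Ncl-1 and by 0.93 (adjusted p = 0.00459) in Ncl-2, and was named after its values were seen. It did not pass without the block in either line.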
